A study of Mus musculus with 144 samples.

Results

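Podocytes of wild-type (WT) BTBR mice were followed over 3 ages in 23 of the 144 samples of the series, chosen by their labels for genotype, cell type and age. There were 8 samples at 6 weeks (4 female, 4 male), 8 at 12 weeks (4 female, 4 male) and 7 at 18 weeks (3 female, 4 male). All of these mice were BTBR +/+ and carried the mT/mG reporter with a podocyte-specific Cre, so that cells in which Cre had been active expressed EGFP and all other cells tdTomato. Glomeruli were isolated with magnetic beads and digested with enzymes, and live CD45- cells were sorted by fluorescence, with podocytes gated as EGFP+ Tomato- CD73-. The series also holds BTBR ob/ob mice with the same reporter, which lack functional leptin, and 2 other sorted cell types, mesangial cells and glomerular endothelial cells (gECs), from the same ages and both sexes. Ages were compared within WT podocytes, first for genes that moved in one direction over both steps and then for the change from 6 to 18 weeks. WT mesangial cells and WT gECs (23 samples each) and ob/ob podocytes (23 samples) served to show where podocytes differed.

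Podocytes are post-mitotic epithelial cells that wrap the glomerular capillaries with foot processes. Neighbouring foot processes are joined by the slit diaphragm, built around nephrin (Nphs1), and rest on a basement membrane of collagen IV and laminin that podocytes help to make. A podocyte that is lost is hardly replaced, and the mouse glomerulus is fully formed only after birth, so the months after weaning cover the passage from a growing to an adult kidney.

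RNA levels are given as CPM, the count of a gene scaled to a common library total, which is relative to all RNA of a sample, so that fewer cells of a type and less RNA per cell cannot be told apart. The total count was 22489980 to 29416494 at 6 weeks, 26472114 to 34963137 at 12 weeks and 15086980 to 17424837 at 18 weeks, so the 18 week samples were the shallowest without overlap. Mitochondrial genes took 6.77 to 9.56% of the counts over all 23 samples. The podocyte identity of the sort held at every age: the summed level of 14 podocyte markers was 52680 to 64240 CPM in all 23 samples. The summed level of 11 mesangial markers was 27.0 to 158.0 CPM. Its median at each age was 0.169 to 0.37% of the median in sorted mesangial cells. For 11 gEC markers the age medians were 7.99 to 8.44% of the median in sorted gECs. The gEC sum was mostly Plat, which podocytes also carried (age medians of 1780 to 1800 CPM), and without Plat, left out after its values were seen, the other 10 markers gave 0.147 to 0.208%. All 4 neutrophil markers were at 0 in every podocyte sample.

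The 12 week samples stood apart from both other ages. On the first principal component, which held 29.3% of the variance, they lay between 42.6 and 58.8, whereas the samples of 6 and 18 weeks lay between -35.4 and -14.9. The deposited files differed in the same way: the gene length less the effective length, which depends on the read or fragment length used in the quantification, was 84 bases in every file of 12 weeks and 106 bases in every file of 6 and 18 weeks, in all cell types and both genotypes. Age 12 weeks and this technical setting cannot be told apart, so the change of a gene from 6 to 12 weeks or from 12 to 18 weeks may not be age alone. Samples of 6 and 18 weeks share the setting but not the depth, which was lower in every 18 week sample. Age 18 weeks and this lower depth came together, so the change from 6 to 18 weeks may not be age alone either. The comparison of 18 with 6 weeks was also run without any 12 week sample. With counts thinned to the shallowest sample it called 1562 of 14473 genes.

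**Figure D1:**
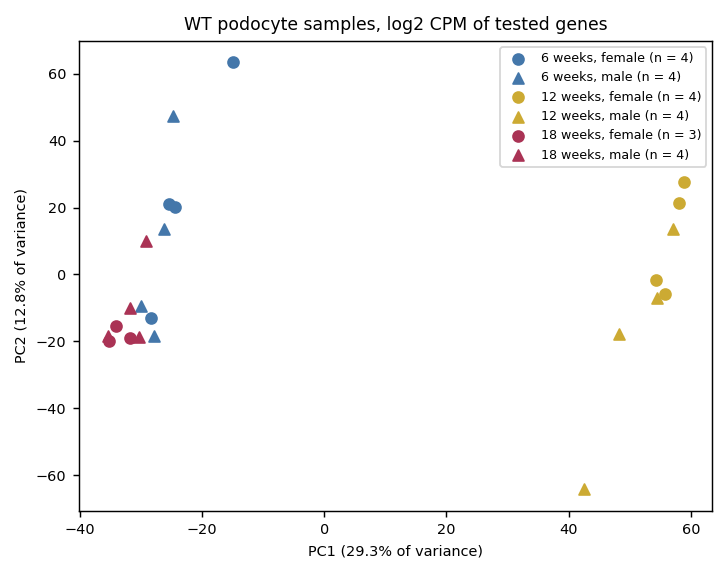
Principal component 1 (x axis) against component 2 (y axis) of the 23 WT podocyte samples, one point a sample, coloured by age and with the sexes as separate symbols. The 8 samples of 12 weeks form a group of their own on component 1, while those of 6 and 18 weeks lie together.

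Over the whole course, 1658 of 15831 tested genes (10.5%) differed between 18 and 6 weeks in edgeR's quasi-likelihood test at an adjusted p of 0.05. Of these, 616 were higher (3.89%) and 1042 lower (6.58%) at 18 weeks, with a median size of 0.325 on the log2 scale, and 220 moved at least 2-fold (124 higher, 96 lower). In 395 of the 1658 the samples of 6 and 18 weeks did not overlap, against 407 (2.57%) among all genes tested. Without the 12 week samples the count was 1649 of 14728. The balance of higher and lower calls depended on the scale, since the deposited TPM gave 607 higher and 548 lower genes.

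Larger counts came from the separate steps. From 6 to 12 weeks 3133 genes (19.8%) differed, 1651 of them higher (10.4%) and 1482 lower (9.36%), and with TPM 1830 were higher and 1037 lower. From 12 to 18 weeks 3115 genes (19.7%) differed, 1337 higher (8.45%) and 1778 lower (11.2%). Of 1550 genes called in both steps, 1487 went in opposite directions, which is the course of a gene that stood apart at 12 weeks only. The test of the difference between the steps called 3422 genes (21.6%). Both steps use the 12 week samples, so a value that is high or low in these samples moves the steps in opposite directions.

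Genes that moved in one direction, with both steps called and of equal sign, numbered 63 (0.398% of those tested), 22 rising (0.139%) and 41 falling (0.259%). All 63 were also called between 18 and 6 weeks without the 12 week samples, although the choice by both steps makes a difference over the whole course likely. The samples of 6 and 18 weeks did not overlap for 20 of the 22 rising and 38 of the 41 falling genes, against 2.57% of all genes tested. This is a description, since the same samples chose the genes. The median change of the rising genes was 1.06 (range 0.27 to 4.75) on the log2 scale and the median size for the falling genes 0.59 (range 0.31 to 2.54), and 12 genes of each kind moved at least 2-fold.

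**Figure D2:**
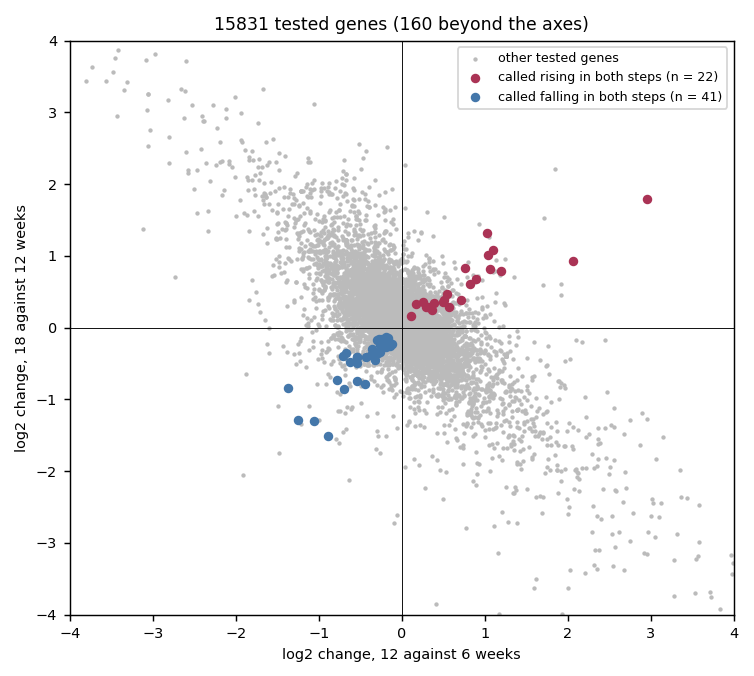
Change from 6 to 12 weeks (x axis) against change from 12 to 18 weeks (y axis) in WT podocytes, both as log2 fold change, one point a gene, with the 22 rising and 41 falling genes marked. Both axes share the 12 week samples, 1487 of the 1550 genes called in both steps have opposite signs on them, and the 63 genes lie in the quadrants where both changes have one sign.

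Epha6, an ephrin receptor tyrosine kinase better known from axon guidance, rose more than any other of the 63 genes. It lies on chr16:59653483-60605531 (minus strand, mm10). Its level was 0.557 to 2.57 CPM at 6 weeks (median 1.18), 8.38 to 17.1 CPM at 12 weeks (median 9.91) and 27.3 to 46.4 CPM at 18 weeks (median 35.4). No sample of one age reached the range of the next, and the increase was 26.8-fold over the 12 weeks between the first and the last age (log2 change 4.75, SE 0.22, edgeR adjusted p = 2.94e-13). The increase was 2.95 on the log2 scale up to 12 weeks and 1.80 after it. Luzp2, which codes for a leucine zipper protein, followed the same course on chr7:54835498-55268885 (plus strand), with medians of 2.54, 9.38 and 18.7 CPM. Its ranges of 1.16 to 3.68, 7.25 to 14.8 and 14.9 to 24.8 CPM did not overlap between any ages (log2 change from 6 to 18 weeks 3.00, SE 0.18, edgeR adjusted p = 1.16e-10). For Epha6 and Luzp2 the later step was smaller than the earlier one (adjusted p = 0.0115 and 0.00569 for the difference between the steps), and these were the only 2 of the 63 genes with such a call.

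The promoter of the gene with the largest rise is shown for its sequence context. It is given 5′ to 3′ on the strand of the gene, as the 250 bases before the RefSeq start site (GRCm38.p6, chr16:60605532-60605781, minus strand), with a CCAAT match in capitals. Its G and C content was 62.8%, and the median of all promoters was 52.4%.
Epha6: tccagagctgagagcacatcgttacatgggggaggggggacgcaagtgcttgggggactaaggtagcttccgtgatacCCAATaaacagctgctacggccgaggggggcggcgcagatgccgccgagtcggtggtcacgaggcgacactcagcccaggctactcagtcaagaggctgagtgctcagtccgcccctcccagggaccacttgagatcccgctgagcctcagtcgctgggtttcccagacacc

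Several other rising genes code for proteins of the cell surface. Lingo2, a leucine-rich repeat membrane protein of neurons, was at 10.8 to 26.3 CPM at 6 weeks (median 13.8), 19.4 to 44.6 at 12 weeks (median 33.6) and 48.8 to 81.0 at 18 weeks (median 63.0). Its increase was 4.16-fold (log2 2.06, SE 0.17, edgeR adjusted p = 1.90e-08), with equal steps of 1.04 and 1.02, and the 18 week samples lay above all others. Adgrg6, an adhesion G protein-coupled receptor needed for myelination, had medians of 6.53, 12.7 and 23.3 CPM and a range of 3.64 to 9.79 at 6 weeks against 16.6 to 28.1 at 18 weeks (log2 1.88, SE 0.15, edgeR adjusted p = 1.02e-08). Erbb4, the receptor for neuregulins and related EGF family ligands, was at 3.76 to 8.06 CPM at 6 weeks, 8.85 to 13.9 at 12 weeks and 15.97 to 21.5 at 18 weeks, with no overlap between any ages (log2 1.57, SE 0.12, edgeR adjusted p = 5.58e-09). Opcml, a GPI-anchored cell adhesion protein of the immunoglobulin superfamily, rose by 1.11 on the log2 scale from a median of 20.6 to one of 51.1 CPM.

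Other members that at least doubled were lower in level. Arsj, an arylsulfatase, rose from 1.16 to 2.37 CPM (median 1.73) to 2.25 to 11.4 CPM (median 8.48), and the lowest 18 week sample lay within the range of 6 weeks (log2 2.18, SE 0.26, edgeR adjusted p = 3.92e-06). Gdpd2, a glycerophosphodiester phosphodiesterase, rose by 1.99 on the log2 scale, and Xkr4, a Kell blood group complex-related membrane protein, by 1.59. Inhbb, the beta B subunit of activins and inhibins, had medians of 1.54, 2.67 and 4.31 CPM, and Ngb, the haem protein neuroglobin, medians of 6.05, 7.64 and 11.7 CPM (log2 1.44 and 1.02). Below 2-fold, the lysosomal protease cathepsin H (Ctsh) stood out by its narrow spread, with 27.5 to 34.9 CPM at 6 weeks, 39.6 to 59.5 at 12 weeks and 52.0 to 69.5 at 18 weeks (log2 0.89, SE 0.07, edgeR adjusted p = 1.90e-08).

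**Figure D3:**
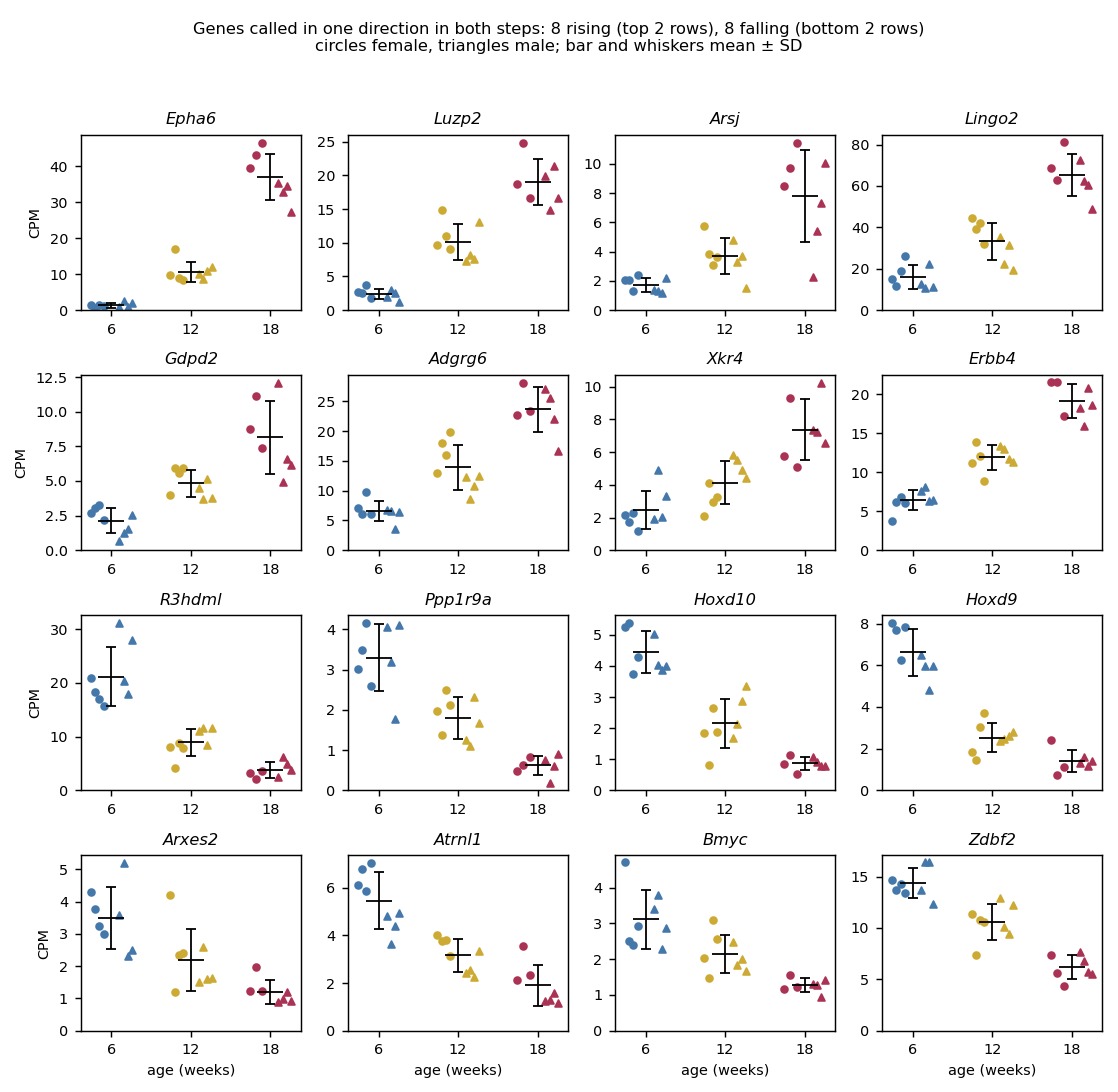
Level in CPM (y axis) by age in weeks (x axis) for 8 rising and 8 falling genes in WT podocytes, one point a sample, with the mean and SD of each age. Epha6 climbs from a median of 1.18 to one of 35.4 CPM and R3hdml drops from 19.4 to 3.62 CPM, with the 12 week samples between both.

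R3hdml, which codes for a putative secreted protease inhibitor, fell most among the 41 falling genes. Its level was 15.8 to 31.1 CPM at 6 weeks (median 19.4), 4.12 to 11.7 CPM at 12 weeks (median 8.69) and 2.07 to 6.25 CPM at 18 weeks (median 3.62). The 6 week samples were all above the others, and the change of -2.54 on the log2 scale (SE 0.19, edgeR adjusted p = 3.56e-09) was split evenly into steps of -1.25 and -1.29. Ppp1r9a, the actin-binding protein neurabin-1, was low throughout, at 1.78 to 4.15 CPM at 6 weeks and 0.174 to 0.901 CPM at 18 weeks (log2 -2.39, SE 0.27, edgeR adjusted p = 2.52e-06).

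Of the 41 falling genes, 3 described here were homeobox genes, transcription factors that set position along the body axis. Hoxd10 (chr2:74691924-74695105, plus strand) was at 3.75 to 5.38 CPM at 6 weeks (median 4.15), 0.811 to 3.36 at 12 weeks (median 2.00) and 0.525 to 1.15 at 18 weeks (median 0.849). Hoxd9, which lies next to it (chr2:74697727-74700208, plus strand), was at 4.81 to 8.03 CPM at 6 weeks (median 6.37), 1.44 to 3.72 at 12 weeks (median 2.55) and 0.748 to 2.42 at 18 weeks (median 1.31). In both genes every 6 week sample was above every 18 week sample, with changes of -2.36 (SE 0.24, edgeR adjusted p = 5.13e-07) and -2.22 (SE 0.21, edgeR adjusted p = 3.00e-07) on the log2 scale. Hoxc10, on chromosome 15, fell by 0.96 from a median of 17.7 to one of 9.23 CPM (edgeR adjusted p = 5.13e-06). These 3 genes are named together because of their family, which was noticed after their values were seen.

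The promoters of both neighbouring Hoxd genes are shown since the genes fell together. They are given as the 250 bases before the RefSeq start site on the plus strand of GRCm38.p6, at chr2:74691641-74691890 for Hoxd10 and chr2:74697513-74697762 for Hoxd9, with matches of the searched letters in capitals. The Hoxd10 sequence holds a match to each of the 3 strings named below, and the Hoxd9 sequence holds no match. Their G and C content was 65.6% and 65.2%.
Hoxd10: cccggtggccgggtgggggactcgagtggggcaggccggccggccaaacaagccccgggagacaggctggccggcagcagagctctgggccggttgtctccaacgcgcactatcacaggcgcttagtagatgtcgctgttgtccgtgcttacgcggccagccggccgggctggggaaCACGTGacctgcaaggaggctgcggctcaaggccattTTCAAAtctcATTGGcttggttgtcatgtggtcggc
Hoxd9: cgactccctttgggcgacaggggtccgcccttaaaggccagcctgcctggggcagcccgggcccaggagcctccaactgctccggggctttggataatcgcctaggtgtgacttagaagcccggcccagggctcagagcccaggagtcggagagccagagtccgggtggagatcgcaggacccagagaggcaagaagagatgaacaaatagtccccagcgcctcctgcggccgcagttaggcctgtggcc

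In all, 3 short letter strings were searched on both strands of the 250 bases upstream: CCAAT, which reads ATTGG on the other strand, then TTTGAA, which reads TTCAAA there, and the E-box CACGTG, which reads alike on both strands. No string holds another of them. RefSeq promoters were found for 16 of the 22 rising genes (22 promoters) and 33 of the 41 falling genes (48 promoters). CCAAT was in 31.8% of the rising and 31.2% of the falling promoters, against 33.8% of all 32851 promoters. TTTGAA was in 9.09% and 16.7% against 16%, and CACGTG in 0 and 6.25% against 6.02%. A match is a string of letters and not a measured site.

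Further falling genes had varied roles. Atrnl1, the attractin-like protein linked to melanocortin signalling, had medians of 5.41, 3.25 and 1.59 CPM (log2 -1.51, SE 0.15, edgeR adjusted p = 3.47e-07). Zdbf2, whose paternal copy is the one expressed, was at 12.3 to 16.5 CPM at 6 weeks and 4.38 to 7.62 CPM at 18 weeks, with a 12 week median of 10.7 CPM (log2 -1.23). Fxyd6, a regulator of the sodium-potassium pump, was at 43.9 to 66.7 CPM at 6 weeks and 23.6 to 30.0 CPM at 18 weeks (log2 -1.09). Lsr, the lipolysis-stimulated lipoprotein receptor found at tricellular junctions, fell by 1.02 and Tmem176b, a membrane protein of immune and other cells, by 1.04 on the log2 scale. Bmyc, a brain-expressed Myc relative, fell by 1.29 and Armcx4, an armadillo repeat protein, by 1.11. Arxes2, a retrogene on the X chromosome, fell by 1.54 from a median of 3.41 to one of 1.19 CPM; its near-identical copy Arxes1 may share its reads, so this value is uncertain.

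The other 10 rising and 29 falling genes changed by less than 2-fold, except for 1 rising entry known only by a clone name; those named here were picked after their values were seen. Slc39a10, a zinc importer, had medians of 74.2, 96.5 and 135.5 CPM (log2 0.86, edgeR adjusted p = 1.65e-08). Sema3b, a secreted semaphorin, had medians of 72.4, 94.7 and 112 CPM, and Gabrb1, a subunit of the GABA-A receptor, medians of 80.3, 103.9 and 124 CPM. Both were higher at 18 than at 6 weeks in every sample, as was the adhesion protein protocadherin 19 (Pcdh19; log2 0.73). The smallest called rise was that of Smchd1, a chromatin protein of X inactivation and imprinting, from 69.6 to 78.0 CPM to 85.3 to 92.0 CPM (log2 0.27). On the falling side, Hs3st6, which sulfates heparan sulfate, had medians of 163, 129 and 102 CPM (log2 -0.66, edgeR adjusted p = 6.53e-07). H1f0, the linker histone of resting cells, had medians of 83.7, 68.1 and 56.1 CPM, and Bak1, which opens mitochondria in apoptosis, medians of 6.38, 5.50 and 4.32 CPM. The smallest called fall was that of Iqsec1, an exchange factor for ARF6, from a median of 347 to one of 276.5 CPM (log2 -0.31).

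By 12 weeks the rising genes had covered 35.0 to 68.9% of their log2 change (median 55.4%) and the falling genes 35.0 to 65.3% (median 50.2%). No falling gene and 2 rising genes differed between the steps, against 21.6% of all genes, but a gene with 2 called steps of one sign is one in which the steps cannot differ by much. With females and males fitted apart, 21 and 22 of the 22 rising genes and 37 and 40 of the 41 falling genes were called with the same sign between 18 and 6 weeks, which is a description, since the same samples chose the genes. No gene of 17207 differed between the sexes in its change from 6 to 18 weeks by edgeR at the threshold, 635 did so at an unadjusted p under 0.05, and DESeq2 called 5. Epha6 rose by 5.25 in females and 4.33 in males on the log2 scale.

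The ob/ob podocytes are separate animals that took no part in the choice of the 63 genes. In them 20 of the 22 rising genes were called higher at 18 than at 6 weeks (11.6% of all 17143 genes tested) and 39 of the 41 falling genes lower (13.7% of all), and all 63 had the sign seen in WT. The median change was 1.20 and -0.552 on the log2 scale, against 0.017 for all genes. Both steps were called with that sign for 14 of the 22 rising and 14 of the 41 falling genes (0.391% and 0.583% of all genes). The ob/ob samples of 12 weeks carry the same difference in effective length, so these steps are not free of it. The depth also fell as in WT, with totals of 27448055 to 32490939 at 6 weeks and 14843984 to 19278337 at 18 weeks. In ob/ob podocytes too, age 18 weeks and lower depth cannot be told apart.

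Epha6 had mean levels of 13.3, 71.8 and 162 CPM in ob/ob podocytes (log2 change from 6 to 18 weeks 3.60, edgeR adjusted p = 3.36e-19), against 1.32, 10.6 and 36.4 CPM in WT on the same scale. The genotypes did not overlap at any age, with the lowest ob/ob sample of 6 weeks at 6.79 CPM and the highest WT sample of 6 weeks at 2.52 CPM. Whether the change over time differed between genotypes was tested for every gene, and 33 of 17143 (0.192%) were called, 2 of them among the 63. R3hdml was at 33.5, 27.7 and 19.3 CPM in ob/ob podocytes and thus fell less than in WT (difference 1.77 on the log2 scale, edgeR adjusted p = 0.000195). Atrnl1 was at 3.97, 2.71 and 2.93 CPM (difference 1.04, edgeR adjusted p = 0.0305).

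The same genes were then read in WT mesangial cells and WT gECs. No rising gene had both steps called upward in mesangial cells (0.0618% of all genes) or gECs (0.036%). Of the falling genes 0 did so downward in mesangial cells (0.0412% of all) and 1 in gECs (0.0412%), the membrane trafficking gene Ehd2. With such low shares over all genes, counts of 0 or 1 say little about the 63 genes. Between 18 and 6 weeks, 5 of 22 rising and 16 of 41 falling genes were called with the same sign in mesangial cells (2.05% and 4.25% of 19418 genes tested), with medians of 0.121 and -0.248. In gECs the counts were 4 of 22 and 25 of 41 (1.71% and 4.15% of all), with medians of 0.18 and -0.392, and 1 gene of each kind was called with the opposite sign. The podocyte marker sum in gEC samples was 4054 to 9302 CPM at 6 weeks and 4063 to 4732 CPM at 18 weeks, and its part in the lower values of gECs was not tested.

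The test of the difference between cell types called 5 rising and 9 falling genes as changing more in podocytes than in mesangial cells, where 236 of 19418 genes (1.22%) were called, 0.685% with a higher and 0.53% with a lower change in podocytes. Against gECs, 196 genes (1.01%) were called, 0.515% higher and 0.494% lower. Of the 63 genes, 8 rising and 8 falling were called as changing more in podocytes than in gECs. The WT podocyte samples in these tests are those that chose the genes for their change. The counts are therefore a description and may be raised by the choice. Epha6 was at 35.7 CPM in gECs at 6 weeks and 63.6 CPM at 18 weeks, a change of 0.80 that was 3.91 smaller than in podocytes (edgeR adjusted p = 4.34e-12). In podocytes the sum of the gEC markers other than Plat was 24.1 to 43.6 CPM at 6 weeks and 32.6 to 56.9 CPM at 18 weeks, and its part in the Epha6 values was not tested. Adgrg6 went from 30.2 to 25.1 CPM in mesangial cells and from 4.98 to 7.16 CPM in gECs as means, and rose more in podocytes than in either (differences 2.09 and 1.40, edgeR adjusted p = 2.74e-09 and 9.93e-05). Atrnl1 went the other way, with 54.1 and 57.6 CPM in mesangial cells and 99.5 and 123 CPM in gECs against its fall in podocytes (differences -1.63 and -1.84). Hoxd9 was at 14.1 and 10.1 CPM in mesangial cells and fell more in podocytes (difference -1.80, edgeR adjusted p = 0.000339). Taken against the mean change of both other cell types, 17 of the 63 genes kept the call between 18 and 6 weeks. Both steps were kept by 3 (Ppp1r9a, Armcx4 and Atrnl1). This comparison too holds the samples that chose the genes.

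**Figure D4:**
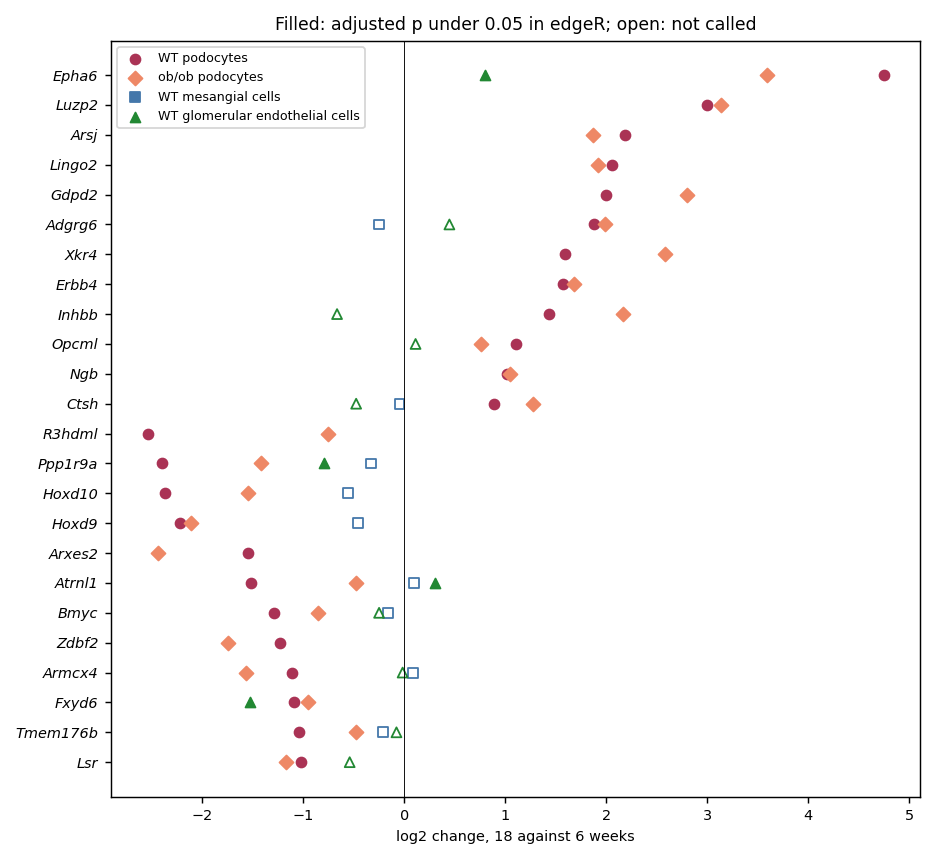
Log2 change from 6 to 18 weeks (x axis) of 24 genes (y axis; the 12 rising and 12 falling genes with the largest change) in WT podocytes, ob/ob podocytes, WT mesangial cells and WT gECs, filled where called and open where not, shown where the mean was at least 1 CPM at 6 or 18 weeks. All 24 genes are shown for both kinds of podocytes, 9 for mesangial cells and 12 for gECs. Only the podocytes have every rising gene right of 0 and every falling gene left of it. For WT podocytes this was fixed in advance, since the same samples chose the genes.

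Genes that define the podocyte moved little over the whole course. Of 18 tested slit diaphragm and podocyte membrane genes, 0 were called higher and 1 lower between 18 and 6 weeks (3.89% and 6.58% of all genes). Their median was -0.04, against 0.011 for all genes. Nephrin (Nphs1) was at 2387 to 3133 CPM at 6 weeks (median 2991), 2214 to 2710 at 12 weeks (median 2469) and 2649 to 3284 at 18 weeks (median 2896), so that the first and last age overlapped (log2 0.05, edgeR adjusted p = 0.637). The change of podocalyxin (Podxl), a charged surface protein, was -0.06 on the log2 scale (edgeR adjusted p = 0.398). The member called lower was Kirrel2, a nephrin relative, from a median of 46.8 to one of 37.0 CPM (log2 -0.28, edgeR adjusted p = 0.0206), and that call was lost without 1 of the samples in 3 of 23 cases.

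Of 11 podocyte transcription factors tested, 0 were called higher and 5 lower (3.89% and 6.58% of all genes), among them Lmx1b, Tcf21, Foxc2 and Zhx2, with a median of -0.153. Lmx1b, the gene of nail-patella syndrome, was at 615 to 746 CPM at 6 weeks (median 689), 559 to 689 at 12 weeks (median 611) and 555 to 632 at 18 weeks (median 584), with overlap between the ages (log2 -0.19, edgeR adjusted p = 0.00844). Wt1, the Wilms tumour factor that keeps podocytes differentiated, was at 816 to 962 CPM at 6 weeks and 796 to 876 CPM at 18 weeks (log2 -0.07, edgeR adjusted p = 0.272). These calls depended on the scale: with the deposited TPM, 0 were called higher and 1 lower, and Lmx1b and Zhx2 took the opposite sign without a call. In the 23 fits that each left out 1 sample, Tcf21 kept its call in 8, Foxc2 in 13 and Zhx2 in 16.

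Among 26 tested genes of the foot process cytoskeleton and its adhesions, 1 was called higher and 4 lower (3.89% and 6.58% of all genes), with a median of -0.102. Synaptopodin (Synpo), which bundles actin in foot processes, was at 5818 to 6604 CPM at 6 weeks, 5165 to 5920 at 12 weeks and 5036 to 5353 at 18 weeks, so the first and last age did not overlap (log2 -0.26, SE 0.04, edgeR adjusted p = 0.000155). Integrin beta 1 (Itgb1), through which podocytes hold on to the basement membrane, was the member called higher, from 885 to 1128 CPM to 1150 to 1267 CPM (log2 0.25, edgeR adjusted p = 0.00209). Its adaptor, integrin-linked kinase (Ilk), was called lower (log2 -0.26, edgeR adjusted p = 0.00483), as were ezrin (Ezr) and dystroglycan (Dag1), but these 3 were not called with the deposited TPM, and Ezr kept its call in 12 and Dag1 in 15 of the 23 fits without 1 sample.

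Collagen IV chains of the basement membrane moved in different directions. Of 17 tested basement membrane genes, 2 were called higher (Col4a6 and Lamb2) and 5 lower (Col4a2, Col4a3, Col4a4, Col4a5 and Lamc1), against 3.89% and 6.58% of all genes. Their median was -0.074. Col4a3, Col4a4 and Col4a5 form the collagen network of the mature glomerulus, and their changes were -0.24, -0.26 and -0.25 on the log2 scale (edgeR adjusted p = 0.00992, 0.0059 and 0.0128), of which none was called with the deposited TPM. Col4a2, of the network made earlier in development, had medians of 109 and 69.9 CPM at 6 and 18 weeks (log2 -0.62, edgeR adjusted p = 0.000238). Col4a6 was at 21.1 to 28.4 CPM at 6 weeks, 21.7 to 26.6 at 12 weeks and 30.6 to 41.6 at 18 weeks, above both other ages without overlap (log2 0.57, edgeR adjusted p = 1.77e-05). Lamb2 kept its call in 14 of the 23 fits without 1 sample. In ob/ob podocytes the change of Col4a6 was 0.75 and that of Col4a3 0.02.

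Factors that podocytes secrete to their neighbours gave 1 higher and 4 lower of 17 tested (3.89% and 6.58% of all genes). Vegfa, which maintains the endothelium, did not pass the test (log2 -0.03, edgeR adjusted p = 0.796). Sema3g, a class 3 semaphorin and podocyte marker, was at 4095 to 5864 CPM at 6 weeks, 4172 to 5042 at 12 weeks and 5648 to 6488 at 18 weeks, with overlap between the first and last age (log2 0.30, edgeR adjusted p = 0.00283). Its relative Sema3f and the chemokine Cxcl12 were called lower, by -0.33 and -0.36 on the log2 scale (edgeR adjusted p = 0.00191 and 0.00257). Efnb1, an ephrin of the slit diaphragm, and Bmp7, a growth factor of kidney development, were called lower too, and Bmp7 kept the call in 7 of the 23 fits that each left out 1 sample.

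A list that joins imprinted genes with other genes of growth before and after birth gave 1 higher and 3 lower of 17 tested (3.89% and 6.58% of all genes). The members called lower were Ndn, Peg3 and Igf2bp2. Ndn (necdin) had medians of 9.22, 7.65 and 5.64 CPM (log2 -0.80, edgeR adjusted p = 0.000318) and Peg3 medians of 39.6, 36.8 and 27.6 CPM (log2 -0.56, edgeR adjusted p = 0.00126). Gnas, which codes for the stimulatory G protein subunit, was at 640 to 739 CPM at 6 weeks, 659 to 826 at 12 weeks and 808 to 890 at 18 weeks (log2 0.31, edgeR adjusted p = 2.08e-05). Of 19 proliferation genes and 18 circadian clock genes tested, 0 were called in either direction between 18 and 6 weeks, and neither was any of 18 genes of the unfolded protein response, where the background was 10.5%.

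The metallothionein Mt1, which binds zinc and responds to glucocorticoids, was at 11.9 to 27.4 CPM at 6 weeks, 33.3 to 62.3 at 12 weeks and 32.1 to 57.2 at 18 weeks, so that it had risen by 12 weeks and both later ages lay above the first (log2 from 6 to 18 weeks 1.13, edgeR adjusted p = 4.86e-05). Mt2 changed by 1.25 (edgeR adjusted p = 0.00181). Of 10 glucocorticoid targets tested, 2 were called higher and 1 lower (3.89% and 6.58% of all genes). Of 18 interferon genes, 3 were called higher and 0 lower (3.89% and 6.58% of all genes), with Ifit1 at a median of 0.882 CPM at 6 weeks and 2.12 CPM at 18 weeks (log2 1.20, edgeR adjusted p = 0.0101) and Ifit3 at 4.51 and 7.47 CPM (log2 0.70, edgeR adjusted p = 0.0111). The call of Gbp2, the remaining one, was lost in 7 of the 23 fits that each left out 1 sample.

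Energy, lysosomal and growth factor signalling genes were read against 3.89% of all genes called higher and 6.58% called lower. Oxidative phosphorylation gave 1 higher and 0 lower of 29 tested, the mitochondrially encoded genes 0 and 2 of 15, glycolysis 0 and 1 of 15 and cholesterol synthesis 0 and 2 of 22. Genes of autophagy and the lysosome gave 1 higher, Ctsh as above, and 4 lower of 26. TGF-beta and BMP signalling gave 0 higher and 3 lower of 16; among these, the BMP antagonist Grem1 was at 0.396 to 1.11 CPM at 6 weeks, 0.728 to 2.87 at 12 weeks and 0 to 0.46 at 18 weeks (log2 -1.98, edgeR adjusted p = 0.00362).

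The step from 6 to 12 weeks and the step from 12 to 18 weeks went in opposite directions for the immediate early and the basement membrane genes. From 6 to 12 weeks 10.4% of all genes were called higher and 9.36% lower, and from 12 to 18 weeks 8.45% and 11.2%. Of 25 tested immediate early genes, which are induced within minutes of a stimulus and by enzymatic digestion of tissue, 12 were called higher and 0 lower at 12 than at 6 weeks (median 0.481, against -0.009 for all genes), and 0 higher and 17 lower at 18 than at 12 weeks (median -0.694, against 0.01). Fos was at 1762 to 4526 CPM at 6 weeks (median 3533), 3154 to 6201 at 12 weeks (median 4702) and 2204 to 3533 at 18 weeks (median 2891), so that neighbouring ages overlapped. Atf3 had medians of 773, 1540 and 840 CPM (log2 1.04 and -0.84 for the steps, edgeR adjusted p = 0.00166 and 0.0124). In mesangial cells, which went through the same digestion, 0 of 26 were called higher and 5 lower at 12 than at 6 weeks, and in gECs 1 and 0. The later fall was partly shared: at 18 than at 12 weeks 0 were called higher and 10 lower in mesangial cells (median -0.386). In gECs the later step gave 1 higher and 1 lower. Taken relative to the mean of both other cell types, 9 were called higher at 12 than at 6 weeks and 8 lower at 18 than at 12 weeks in podocytes. Of all 19418 genes tested in this way, 195 were called higher in the earlier step and 315 lower in the later step. Shares of all genes called by step within mesangial cells and gECs are not given here.

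Basement membrane genes took the opposite course, with 0 higher and 12 lower of 17 at 12 than at 6 weeks (median -0.427) and 11 higher and 0 lower at 18 than at 12 weeks (median 0.28). From 6 to 12 weeks the other cell types had calls in the same direction, with 9 called lower in mesangial cells and 8 in gECs. Relative to both other cell types 1 gene (Lamb1) was called lower in podocytes in that step, as were 265 of all 19418 genes tested. From 12 to 18 weeks 4 were called higher and 0 lower in mesangial cells, and 0 and 1 in gECs. For the steps in these cells the shares of all genes called are not given here. Between 18 and 6 weeks 0 were higher and 7 lower in mesangial cells (2.05% and 4.25% of all genes there). In gECs the counts were 0 and 10 (1.71% and 4.15% of all). Between 18 and 6 weeks the immediate early genes gave 0 higher and 2 lower, Jund and Klf4 (3.89% and 6.58% of all genes).

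**Figure D5:**
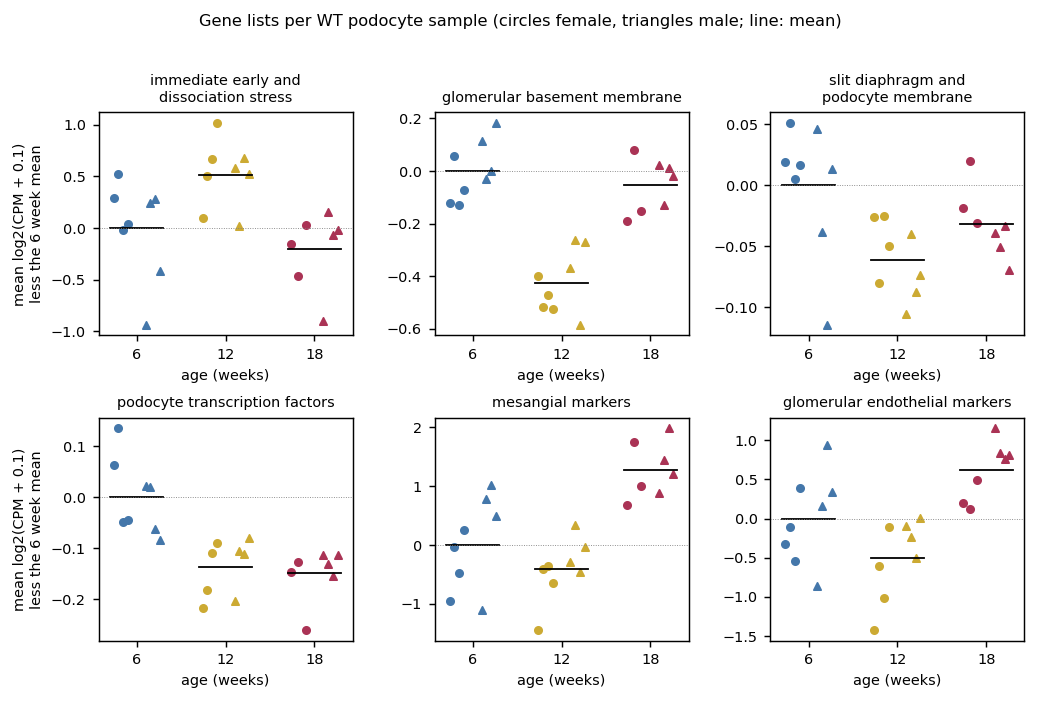
Mean log2(CPM + 0.1) of 6 gene lists (panels) in each WT podocyte sample, less the mean at 6 weeks (y axis), by age in weeks (x axis), one point a sample. The immediate early genes are highest at 12 weeks (median 0.553), the basement membrane genes lowest there (median -0.435), and the mesangial markers highest at 18 weeks (median 1.21).

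Some single genes were detected almost exclusively at 12 weeks, or were almost missing there. Rorb, a nuclear receptor of retina and brain, was at 1030 to 1273 CPM in the 8 samples of 12 weeks and at most 0.376 CPM in the 15 others, and it was at mean levels of 978 CPM in mesangial cells, 1082 CPM in gECs and 1060 CPM in ob/ob podocytes of 12 weeks. The ribosomal protein gene Rps12 was listed at 0 in all samples of 6 and 18 weeks and at 5.99 to 47.6 CPM at 12 weeks, and the small RNA genes Mir6236, Rny3 and Snord21 were also listed at 0 except at 12 weeks. Conversely, mt-Co3, a mitochondrial subunit of the respiratory chain, was at 0.039 to 54.8 CPM at 12 weeks and at 828 to 1224 CPM at the other ages, and Hist2h2aa2, Rps27rt and Sp140 were near 0 at 12 weeks. None of these was called between 18 and 6 weeks. Of 2865 genes whose steps differed in podocytes when all 3 cell types were fitted together, 804 (28.1%) were called with the same sign in mesangial cells and gECs. Of all 19418 genes tested in that fit, 4262 were called in mesangial cells and 2885 in gECs, in either direction.

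Markers of other cells moved as well. Of 10 mesangial markers tested, 8 were called higher and 0 lower in podocytes at 18 than at 6 weeks (3.89% and 6.58% of all genes), with a median of 1.28. The summed levels of all 11 listed were 32.4 to 90.2 CPM at 6 weeks, 27.0 to 69.8 at 12 weeks and 70.0 to 158.0 at 18 weeks. The medians of these sums were 0.215, 0.169 and 0.37% of the median in mesangial cells. Serpine2, a protease inhibitor of the matrix, was at 3.01 to 9.88, 8.65 to 19.2 and 7.58 to 18.7 CPM and was thus already higher at 12 weeks (log2 from 6 to 18 weeks 1.18). Nt5e, which codes for the CD73 used to gate these cells out, was at 0.0875 to 3.86 CPM at 6 weeks and 1.56 to 4.26 CPM at 18 weeks (log2 1.41, edgeR adjusted p = 0.0285), a call kept in 18 of the 23 fits without 1 sample. Of 10 gEC markers tested, 1 was called higher, the angiopoietin receptor Tek, and of 6 smooth muscle markers 2, Des and Ntrk3. The part of such cells in the 63 genes was not tested by removal of cells. With the marker level as a covariate, in the samples that chose the genes, 58 of them kept both steps and all 63 the call between 18 and 6 weeks. This level was the log2 sum over all listed markers other than the podocyte list. Plat, which podocytes carry, had age medians of 1780 to 1800 CPM in it, against 27.0 to 158.0 CPM for all mesangial markers. The covariate thus hardly follows the mesangial markers and cannot decide the part of mesangial cells.

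The share of counts on loci of the GENCODE biotype TEC, unannotated transcribed regions, was 0.293 to 0.648% at 6 weeks and 0.464 to 0.685% at 18 weeks and reached 0.831% in 12 weeks male 1. With this share as a covariate 33 of the 63 genes kept both steps and all 63 the call between 18 and 6 weeks.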

How the data were processed

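RNA of sorted cells was amplified with the SMART-Seq Stranded Kit, depleted of ribosomal cDNA and sequenced with single reads. The authors aligned reads to mm10 with Bowtie2 2.3.3.1 within RSEM 1.3.0 after FastQC 0.11.5, and deposited for every sample the RSEM expected counts (estimated reads per gene, not normalized) and TPM. RSEM ran with default parameters, so a setting for strand is not stated and reads of antisense or overlapping genes cannot be told apart. Of 46517 gene entries 46005 were matched to GENCODE M21, and symbols shared by 197 entries were kept apart by Ensembl ID. Expected counts were rounded, filtered with filterByExpr (minimum count 10, 15831 genes kept), scaled by TMM and fitted in edgeR 4.0.16 (R 4.3.3) by quasi-likelihood with age and sex as terms over the 23 samples. P-values were adjusted by Benjamini-Hochberg over all genes tested, at a threshold of 0.05. A gene moving in one direction had both steps called with one sign. Differences between cell types were interaction terms over 69 WT samples (19418 genes), and those between genotypes over 46 podocyte samples (17143 genes). TPM was tested as log2(TPM + 0.1) with limma 3.58.1, and DESeq2 1.42.0 was an alternative.

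The members of the gene lists and the rules were chosen with earlier results of these data known. Predicted gene models aside, the genes given with values are the 12 with the largest change in each direction among the one-direction genes, the 6 per step and direction with the largest change, the 3 per direction of each other test, and members of the lists, all at a mean of 1 CPM or more at some age. Hoxc10, Ehd2 and 9 others so marked above were named after their values were seen. Labels do not say whether a sample is one animal or a pool, so the p-values measure only the spread between these samples. The replicates of each age differed by more than counting noise. Data were simulated for the comparison of 18 with 6 weeks over the genes tested, with the changed genes drawn from those at a mean of 1 CPM or more. In these data 67.2% of 67 genes changed 1.5-fold, 83.6% of 67 changed 2-fold and 100% of 66 changed 4-fold were called. Of the unchanged genes 0.026% were called. The shares for changed genes do not cover genes below 1 CPM. Same-numbered samples were checked for pairing and did not deviate together. Other alternatives were other size factors, no filter, thinned counts, no sex term, a replicate block, marker and TEC covariates, protein-coding genes and leaving out each sample. Those with the TEC share, with protein-coding genes, without the 12 week samples and relative to the other cell types were chosen after seeing the data. The authors' perfused glomeruli and other ob/ob cell types were not used here. RefSeq promoters of GRCm38.p6 were matched by symbol. Some genes of the lists are counted in them but not reported by name here.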

Additional observations from a re-analysis of the deposited data

Results flagged for a closer look

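In 21 of 261 groups of 7 or 8 samples 1 sample lay far from the others by Dixon's test at the 95% level, which by chance flags about 1 in 20 groups. Among the one-direction genes these were Epha6 in 12 weeks female 2 (17.1 CPM), Erbb4 in 6 weeks female 1 (3.76 CPM), Arxes2 in 12 weeks female 1 (4.20 CPM) and 18 weeks female 3 (1.96 CPM), and Tmem176b in 18 weeks male 4 (3.03 CPM), with Hs3st6 lowest in 12 weeks male 1 (92.7 CPM). The processed pseudogene H3f3c, which has near-identical copies and is uncertain, was at 5.39 CPM in 18 weeks female 2. Of the podocyte genes, Podxl was lowest in 6 weeks male 3 (17147 CPM) and 12 weeks male 1 (16279 CPM), Sema3g in 12 weeks male 1 (4172 CPM) and Tcf21 in 18 weeks female 4 (203.5 CPM). Dag1 was highest in 18 weeks female 3 (2264 CPM), and Col4a4 and Col4a5 were highest in 6 weeks male 1 (5101 and 1030 CPM). Mt1 and Mt2 were highest in 18 weeks male 1 (57.2 and 26.5 CPM), Mt2 also in 6 weeks male 2 (10.4 CPM), Errfi1 was lowest in 18 weeks male 4 (12.8 CPM) and Nt5e highest in 12 weeks male 4 (1.85 CPM). The sample 12 weeks male 1 also had the highest mitochondrial share (9.56%) and TEC share (0.831%).

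Differences between groups under the same contrast were called for 236 genes between podocytes and mesangial cells, 196 between podocytes and gECs and 33 between ob/ob and WT podocytes in the change from 6 to 18 weeks, and for 3422 genes between the steps. On the log2 scale, the change in podocytes less that in mesangial cells was 2.80 for Epha6, 2.09 for Adgrg6, -2.11 for Ppp1r9a, -1.80 for Hoxd9, -1.63 for Atrnl1, -1.17 for Bmyc, -1.23 for Armcx4 and -0.87 for Tmem176b. Less that in gECs it was 3.91 for Epha6, 2.56 for Arsj, 1.40 for Adgrg6, 1.33 for Ctsh, -1.64 for Ppp1r9a, -1.84 for Atrnl1, -1.08 for Bmyc, -1.13 for Armcx4 and -1.003 for Tmem176b. Arsj was at or below 0.4 CPM in gECs, and Epha6 at 0.166 and 0.626 CPM in mesangial cells at 6 and 18 weeks. The genes listed were chosen for their change in the same WT podocyte samples.

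The most extreme of these differences rest on genes near 0 in one cell type, where the fitted fold is no bound. Against mesangial cells they were Slc4a8 (4.14; 0 and 0.117 CPM in podocytes at 6 and 18 weeks), Tnfrsf11a (3.91) and Rtn4rl2 (3.87) upward, and Prune2 (-6.07; 0.00503 and 0.252 CPM in mesangial cells), Cd74 (-5.45) and Rragb (-3.78; 6.83 and 7.11 CPM in podocytes and 0 and 0.0699 CPM in mesangial cells) downward. Against gECs they were Slc4a8 (4.63) and Col16a1 (4.20) upward, and Grm7 (-5.66), H3f3c (-4.61) and Syk (-3.52; 0.896 and 0.0506 CPM in podocytes) downward.

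In ob/ob less WT podocytes the one-direction genes R3hdml (1.77) and Atrnl1 (1.04) differed. The largest differences overall were in Tnc, which codes for the matrix protein tenascin C (5.27; 0.263 and 6.02 CPM in ob/ob, 0.942 and 0.551 CPM in WT), Col1a1 (3.70) and Hpgds (2.98) upward and Col5a3 (-2.08), Scd1 (-1.68) and Epb4.1l1 (-1.27) downward.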

How the results depend on the processing

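The counts of calls kept within 1.5 times of the reported values under other size factors, DESeq2, no filter, counts thinned to the shallowest sample, no sex term, all 46 podocyte samples, protein-coding genes or the TEC share, with the exceptions given here. With the marker level as a covariate, 4737 genes were called from 12 to 18 weeks, 2922 from 6 to 18 weeks and 99 moved in one direction. With TPM, 40 moved in one direction, among them 32 of the 63 reported, and 61 of the 63 kept the call between 18 and 6 weeks. Relative to both other cell types 460 were called from 6 to 12 weeks, 689 from 12 to 18 weeks, 223 from 6 to 18 weeks (157 with both steps of that sign, against 1075) and 858 between the steps, and 6 moved in one direction. DESeq2 called 5 genes for the difference between sexes, 453 and 398 for podocytes against mesangial cells and gECs and 108 for ob/ob against WT. The causes were not tested. With DESeq2 the calls against gECs were 260 higher and 138 lower, against 100 and 96. Over the 23 fits that left out 1 sample, calls ranged from 2631 to 3541 (6 to 12 weeks), 2464 to 3907 (12 to 18 weeks), 1199 to 1826 (6 to 18 weeks), 831 to 1142 (with both steps of that sign), 2725 to 4140 (between the steps) and 45 to 67 (one direction); the last count was lowest without 12 weeks male 3 and the others from 6 to 18 weeks were lowest without 18 weeks female 3. Same-numbered samples did not pair: 22 pairs had residual correlations of -0.298 to 0.063. With a replicate block the counts were 2590, 2353, 1120 and 2739 for the steps, the whole course and the difference between steps, 42 in one direction (40 of the 63 reported) and 767 with both steps of that sign. The block gave 0 genes for sex, 302 and 198 against the other cell types, 4121 in ob/ob podocytes and 24 for ob/ob against WT.

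Of 1458 values of named genes under these settings, 1380 kept their sign and call, 75 lost the call and 3 changed sign. The sign changed with TPM for Efnb1 (0.0155), Lmx1b (0.24) and Zhx2 (0.355). Depth limits low genes: at 18 weeks the shallowest sample had 15086980 counts, and genes near 1 CPM rest on few reads there.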

Other observations

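Genes outside the one-direction rule also moved far over the whole course. Sdk2, a synaptic adhesion protein, was at 4.27 to 19.2 CPM at 6 weeks, 1.86 to 6.97 at 12 weeks and 1.31 to 2.92 at 18 weeks (log2 from 6 to 18 weeks -2.53, edgeR adjusted p = 6.53e-07); its later step was not called (edgeR adjusted p = 0.0788). In ob/ob podocytes its change was -2.70. Kcnk10, a background potassium channel, was at 0 to 0.6251 CPM at 6 weeks and 0.708 to 2.51 CPM at 18 weeks (log2 2.52, edgeR adjusted p = 0.0152).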
